A study of Mus musculus with 2 samples.

Results

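Otx1, Otx2 and Crx are the 3 genes described here, of 31053 genes in the deposited tables. They were found by their symbols and were followed through retinal pigment epithelium (RPE), ciliary margin, neurogenic progenitors and photoreceptor precursors, each recognised by marker genes. The libraries were made from mouse eye cups at e15.5, a stage of embryonic development counted in days, after cornea, lens and optic nerve had been taken off. Control eye cups (Myrf fl/fl) carried loxP sites in both alleles of Myrf, a transcription factor gene. Mutant eye cups (Rx>cre Myrf fl/fl) carried the same alleles together with Cre driven by Rx in the early eye field, so that neural retina as well as RPE descends from Cre-expressing cells. The floxed alleles were thus common to both genotypes and Cre was in the mutant only. Each genotype was 1 library of single cells from 3 pooled eye cups, so no test between genotypes was possible and the difference has no replicate check.

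OTX1, OTX2 and CRX are related homeodomain transcription factors of the orthodenticle family, and they bind the same short DNA motif. OTX2 is needed for RPE specification, where it acts with MITF on pigment genes, and it is needed again in the neural retina when newborn cells choose the photoreceptor fate. CRX acts downstream of OTX2 and drives the genes of photoreceptor differentiation, while OTX1 is known from the ciliary margin, the RPE and anterior surface ectoderm. Otx2os1 is a long noncoding RNA transcribed from the opposite strand at the Otx2 locus.

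On the GRCm38 build, Otx2 (ENSMUSG00000021848) lies on the minus strand at chr14:48657677-48673819, Crx (ENSMUSG00000041578) on the minus strand at chr7:15865947-15879968, and Otx1 (ENSMUSG00000005917) on the minus strand at chr11:21994764-22002897. All 3 are protein-coding genes. Otx2os1 (ENSMUSG00000098682) runs on the plus strand at chr14:48668708-48870683 and overlaps 1 of the 11 annotated Otx2 transcripts, over 5112 bases. The sequences printed next are shown because they place the family's motif, GGATTA, next to the start of genes whose levels are given further on. They are RefSeq promoter windows on GRCm38.p6, written 5′ to 3′ on the gene's strand, with each match to GGATTA or its reverse complement TAATCC in capitals.
Crx, chr7:15879969-15880205, minus strand: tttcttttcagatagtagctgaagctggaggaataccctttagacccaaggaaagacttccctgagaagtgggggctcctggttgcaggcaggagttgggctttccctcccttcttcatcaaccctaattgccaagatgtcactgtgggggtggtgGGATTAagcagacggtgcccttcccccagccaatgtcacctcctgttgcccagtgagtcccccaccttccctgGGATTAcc
Otx2, chr14:48665303-48665332, minus strand: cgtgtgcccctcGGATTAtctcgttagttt
Rbp3, chr14:33953753-33954002, plus strand: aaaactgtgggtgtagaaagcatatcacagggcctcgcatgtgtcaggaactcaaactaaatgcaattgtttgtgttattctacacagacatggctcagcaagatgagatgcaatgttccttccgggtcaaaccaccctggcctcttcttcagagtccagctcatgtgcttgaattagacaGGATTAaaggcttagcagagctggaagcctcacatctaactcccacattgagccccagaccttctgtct
Trpm1, chr7:64153585-64153834, plus strand: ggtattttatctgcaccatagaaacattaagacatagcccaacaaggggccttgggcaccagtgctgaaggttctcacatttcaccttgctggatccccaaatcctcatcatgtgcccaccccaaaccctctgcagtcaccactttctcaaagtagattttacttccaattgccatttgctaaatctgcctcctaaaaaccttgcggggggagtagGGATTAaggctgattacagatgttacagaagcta
In the 250 bases before the Crx start the motif was matched 2 times, beginning 94 and 21 bases upstream, and the last 13 of these bases, which are exonic in another transcript, are not printed. One of the 4 Otx2 windows held a match, 211 bases before an internal start and inside an exon of a longer transcript, so only 30 bases around it are printed. Rbp3, which encodes the interphotoreceptor retinoid-binding protein, had its match 69 bases upstream, and Trpm1, which encodes a cation channel of pigment cells, had it 34 bases upstream. Over all 27025 genes with a window, 7.21% held at least 1 match in the 250 bases before a start. Among the photoreceptor target genes listed for this work, Aipl1, Gnat2, Guca1a, Rbp3 and Sag held one, and among the RPE pigment and transport genes Best1, Dct, Rgr and Trpm1 did. Of the other lists, Thrb held one among 11 fate factors with a window and Mitf among 7 RPE and eye field factors, Cabp5 and Isl1 among 5 bipolar genes did, and 0 of 9 Notch and neurogenic genes did. A share is void for the target list and the pigment list, with windows for 11 of 20 and 9 of 13 genes, and for the eye field and Notch lists, with 7 of 10 and 9 of 12. A match describes letters and not binding.

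The deposited tables held 13017 control and 13880 mutant barcodes, with a median of 9339 and 8702 unique molecular identifiers (UMIs, tags that count each captured transcript once) per barcode, and 11518 and 12576 cells were kept. Y-linked UMIs were found in 0.026% of kept control cells and in 41.7% of kept mutant cells, so the pools differed in sex as well as in genotype. Of the kept barcodes, 59 occurred in both libraries, 14 of them in the same class. Class levels are given as UMIs per 1000000 UMIs of the class (CPM), and a range in parentheses after a CPM is its exact 95% Poisson interval. Ranges after a ratio of mutant to control are exact 95% conditional binomial intervals, and ranges after a share of cells are exact 95% Clopper-Pearson intervals. All of them cover counting error only and not the spread between animals. Those of levels and ratios take UMIs as independent, so they also leave out the spread between cells. As 3′ ends were counted once per molecule and capture differs between transcripts, levels are compared across classes for 1 gene and not between genes.

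The clustering was run without Otx1, Otx2, Crx, the listed genes and the naming markers, so that the members' levels took no part in it. RPE-like cells numbered 365 in the control and 196 in the mutant, and 9 of their 10 markers were above the rest of the cells in both libraries, Rgr being the exception at 4.55 and 0 CPM. Neurogenic progenitor-like cells numbered 812 and 1129, with 9 of 9 markers above the rest. Photoreceptor precursor-like cells numbered 316 and 459, with 8 of 9 markers above the rest and the late marker Rcvrn at 0 in both libraries. The cluster matched best to ciliary margin markers held 58 and 59 cells, but it was led by Cartpt, Zic1, Pax2 and Zic4, and Pax2 is known from the optic stalk and disc. Msx1 stood there at 27.1 CPM in the control and 106 in the mutant, Wfdc1 at 95 and 123, and Pax2 at 183 and 219, while 2 of its 9 naming markers, Cdo1 and Wls, were below the rest. It is therefore called the Zic1/Pax2 cluster. Mutant RPE-like cells were shallower than control ones, with medians of 3828.5 and 6940 UMIs per cell. Myrf in RPE-like cells stood at 78.3 CPM in control and 29.6 CPM in mutant, at a ratio of 0.378 (0.278 to 0.506), although 3′ tags read the end of the transcript and do not show the deletion itself.

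Otx2 was high in 3 classes and low in all others. In photoreceptor precursor-like cells it stood at 1507 CPM (1459 to 1556) in the control and 1587 CPM (1546 to 1629) in the mutant, the top rank in both libraries. Neurogenic progenitor-like cells followed with 447 CPM (434 to 462) in the control and 481 CPM (469 to 493) in the mutant. RPE-like cells held 426 CPM (405 to 447) and 378 CPM (350 to 407). The next ranks after the first were close in the control, where the neurogenic level was 1.05 times that of RPE (0.992 to 1.11), and apart in the mutant, at 1.27 times (1.18 to 1.38). In cells gated by markers alone they were apart in both libraries, at 617 CPM (598 to 636) in neurogenic cells against 448 CPM (425 to 471) in RPE in the control and 597 CPM (582 to 613) against 433 CPM (398 to 471) in the mutant. Photoreceptor precursor-like cells held 3.37 times the neurogenic level in the control (3.22 to 3.52) and 3.30 times in the mutant (3.18 to 3.43).
Retinal progenitor-like cells, from which the neurogenic cells arise, held 8.25 CPM in the control and 10.2 in the mutant, so that the control neurogenic level was 54.2 times as high (47.5 to 62.2). This fold depends on how the classes are drawn, since gated retinal progenitors held 23.5 CPM in the control beside the 617 CPM of gated neurogenic cells. Amacrine or horizontal-like cells had rank 4 in the control at 42.6 CPM and rank 5 in the mutant at 32.6 CPM. In the mutant, rank 4 went to melanocyte-like cells at 76 CPM, all 32 UMIs being in 7.14% of 28 cells, whereas 50 control cells held none. Neural markers moved with it in these cells, with all 9 neurogenic ones higher in the mutant at a summed 985 CPM against 113, and photoreceptor ones at 102 against 4.41 CPM. Their part in the Otx2 level was not tested. Of all Otx2 UMIs in kept control cells, 36.5% came from photoreceptor precursor-like, 39.6% from neurogenic and 15.7% from RPE-like cells, against 41.1%, 43.4% and 5.19% in the mutant. The last of these shares moves with the number of RPE-like cells.

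**Figure D1:**
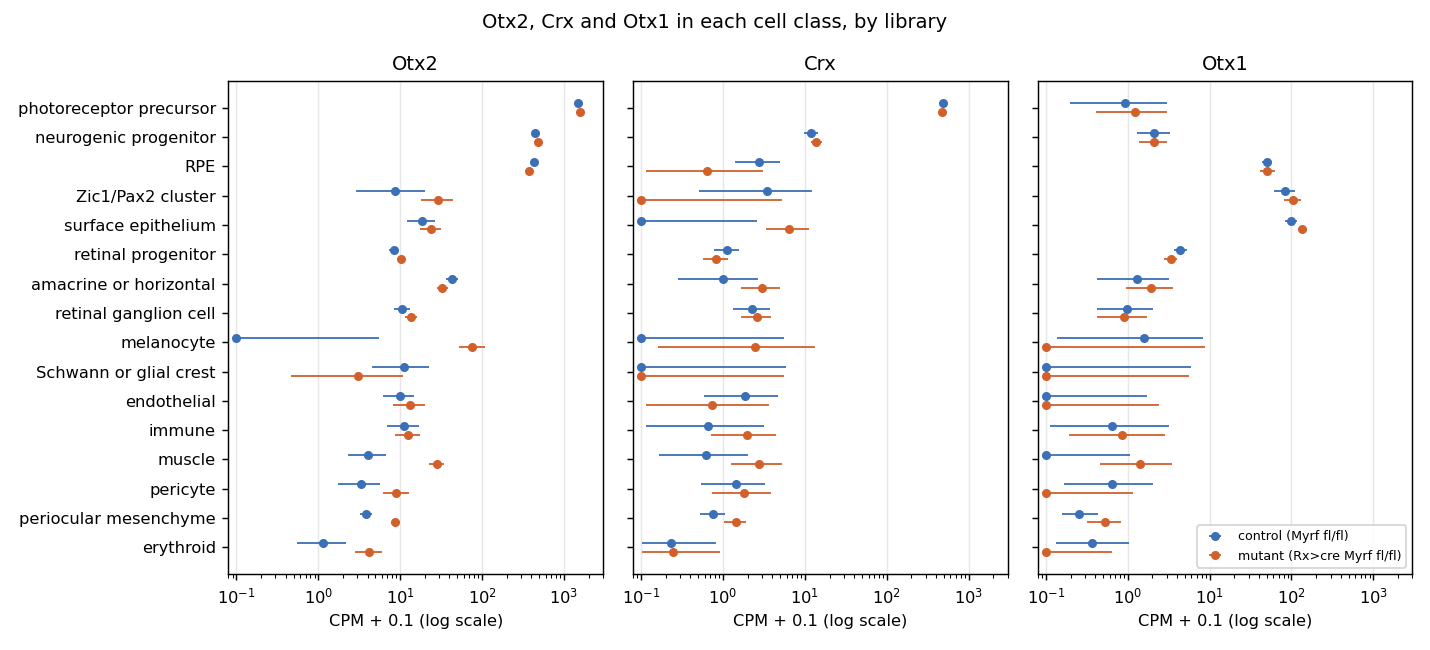
Level of Otx2, Crx and Otx1 in each named class, as CPM plus 0.1 on a log axis, 1 point per library (blue, control; orange, mutant) with its 95% Poisson interval. Otx2 is high in photoreceptor precursor, neurogenic and RPE-like cells, Crx in photoreceptor precursor-like cells, and Otx1 in surface epithelium-like cells, the Zic1/Pax2 cluster and RPE-like cells.

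Crx was close to a single-class gene. Photoreceptor precursor-like cells held 485 CPM (458 to 513) in the control and 469 CPM (447 to 493) in the mutant, which was 85.0% and 83.9% of all Crx UMIs in kept cells. Neurogenic progenitor-like cells held 11.8 CPM (9.65 to 14.3) and 13.7 CPM (11.7 to 15.9), and another 7.56% and 8.52% of the UMIs. The step from neurogenic to photoreceptor precursor-like cells was therefore 41.1-fold for Crx in the control (33.7 to 50.7) and 34.3-fold in the mutant (29.2 to 40.4), beside the step of 3.37-fold and 3.30-fold for Otx2. The neurogenic Crx level lay mostly in 1 of the 3 clusters of the class, with 100 of 106 UMIs in the control and 147 of 167 in the mutant, and at the finer resolution the class held 7 and 38 Crx UMIs. Gated by markers, control neurogenic cells held 21.9 CPM (18.5 to 25.7) and photoreceptor precursor cells 535 CPM, a smaller step, so the size of this step depends on where the class ends.
RPE-like cells had 10 and 1 Crx UMIs, control first, or 2.67 CPM (1.28 to 4.92) and 0.539 CPM (0.0136 to 3.00). In the control 2 cells held them and 1 of these had 9 of the 10, so the interval, which takes UMIs as independent, is too narrow. Outside the retina, pericyte-like cells held 1.34 CPM (0.436 to 3.13) and 1.72 CPM (0.630 to 3.74), mesenchyme-like cells 0.656 (0.429 to 0.961) and 1.33 (0.943 to 1.83), and erythroid-like cells 0.131 (0.00331 to 0.728) and 0.147 (0.00372 to 0.818). Per 100 Otx2 UMIs there were 32.2 Crx UMIs in control photoreceptor precursor-like cells, 2.63 in neurogenic and 0.628 in RPE-like cells, the last resting mostly on that 1 cell. The mutant values were 29.6, 2.85 and 0.143, in the same order of classes.

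Otx1 had another order of classes. Surface epithelium-like cells, marked by Krt5, Krt14 and Krt15, ranked first at 98.2 CPM (82.9 to 116) in the control and 136 CPM (120 to 154) in the mutant. The Zic1/Pax2 cluster came next at 83.1 CPM (61.5 to 110) and 103 CPM (81.3 to 130), and the control levels of these first 2 classes were not separable, at a ratio of 1.18 (0.85 to 1.67), whereas the mutant ratio was 1.31 (1.01 to 1.72). Gated by markers alone, ciliary margin cells came first, at 171 CPM (95.9 to 283) in 6 control cells and 130 CPM (73.0 to 215) in 10 mutant cells, against 106 (88.8 to 125) and 127 (111 to 146) in surface epithelium, with overlapping intervals. RPE-like cells had rank 3 with 50.3 CPM (43.3 to 58.0) in the control and 50.6 CPM (40.9 to 62.0) in the mutant. The control surface epithelium level was 1.95 times that of RPE (1.56 to 2.44), and RPE stood at 0.605 times the Zic1/Pax2 cluster (0.440 to 0.846).
Retinal progenitor-like cells followed at 4.30 and 3.24 CPM, neurogenic cells at 2.00 and 1.97, and photoreceptor precursor-like cells at 0.813 and 1.14 CPM. The 3 classes with most Otx1 thus included RPE, the only one of them with much Otx2. The Zic1/Pax2 cluster held 5 and 21 Otx2 UMIs, control first, and surface epithelium-like cells held 27 and 45, each in under 10% of the cells. In the few gated ciliary margin cells Otx2 was at 91.4 CPM (39.5 to 180), in 3 of 6 control cells. In the mutant it was at 17.4 CPM (2.11 to 62.8), in 2 of 10.
In the Zic1/Pax2 cluster 36.2% of the cells held Otx1 in the control and 62.7% in the mutant, and after thinning in 7.27% (2.02 to 17.6) and 20.7% (11.2 to 33.4), with overlapping intervals. Inside it, the 15 control and 19 mutant cells with an Msx1 or Wfdc1 UMI, both ciliary margin markers, held Otx1 at 128 CPM (84.5 to 187) and 138 CPM (95.6 to 193). The 26 and 29 cells with Pax2 and neither of those markers held 64.5 CPM (37.6 to 103) and 70.0 CPM (45.7 to 103). The higher level lay on the Msx1 or Wfdc1 side in both libraries, with intervals that overlapped, and those cells were also deeper, with medians of 15244 against 10500.5 UMIs in the control and 14182 against 12625 in the mutant. The 17 and 11 cells with none of the 3 genes held 43.3 CPM (14.1 to 101) and 139 CPM (78.0 to 230).

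Otx2os1 was high in only some of the classes with much Otx2. It ranked first in RPE-like cells, at 39.6 CPM (33.5 to 46.5) in the control and 33.9 CPM (26.1 to 43.4) in the mutant, and second in photoreceptor precursor-like cells at 15.45 and 17.99 CPM. Neurogenic progenitor-like cells held 5 and 6 Otx2os1 UMIs, or 0.556 and 0.492 CPM. Per 100 Otx2 UMIs, RPE-like cells held 9.30 Otx2os1 UMIs in the control (7.80 to 11.01) and 8.99 in the mutant (6.83 to 11.6). Photoreceptor precursor-like cells held 1.03 (0.724 to 1.41) and 1.13 (0.870 to 1.45), and neurogenic cells 0.124 (0.0403 to 0.290) and 0.102 (0.0376 to 0.223). The 3 classes were apart by their intervals in each library. The overlap of the genes, chr14:48668708-48673819, lies at the 5′ end of both, whereas 3′ ends were counted. The strand setting of the counting was not given in the sources used here. Whether reads from the overlap were assigned to the other gene was not tested.

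Within the retinal lineage, the finer clusters at a Leiden resolution of 2.0 ordered Otx2 and Crx differently. The cluster led by Neurog2, Atoh7 and Olig2, where Mki67 stood at 548 and 473 CPM, held Otx2 at 545 CPM in the control and 593 in the mutant, with Crx at 0.29 and 2.24 CPM. The cluster led by Atoh7, Neurog2, Gal and the mitotic gene Cdc20 held 549 and 466 CPM of Otx2 and 2.92 and 5.62 CPM of Crx. Both therefore carried more Otx2 than RPE-like cells with next to no Crx.
A cluster led by Neurog2, Mybl1 and Gadd45g held less Otx2, 220 and 203 CPM, and Crx at 1.10 and 7.59 CPM. The cluster led by Atoh7, Neurod4, Btg2 and Dll3, which stayed unnamed between the neurogenic and photoreceptor markers, held 932 CPM (882 to 984) and 855 CPM (816 to 896) of Otx2 and 146 CPM (126 to 167) and 130 CPM (115 to 147) of Crx. It had 162 control and 241 mutant cells, with the proliferation marker Mki67 at 11.3 and 19.96 CPM. The photoreceptor precursor-like cluster held 1566 and 1646 CPM of Otx2 and 509 and 483 CPM of Crx. Otx2 was thus present in each of these clusters, whereas Crx was at 7.59 CPM or below in the 3 neurogenic ones. All cells are from e15.5 and no order of the clusters in time was computed.

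**Figure D2:**
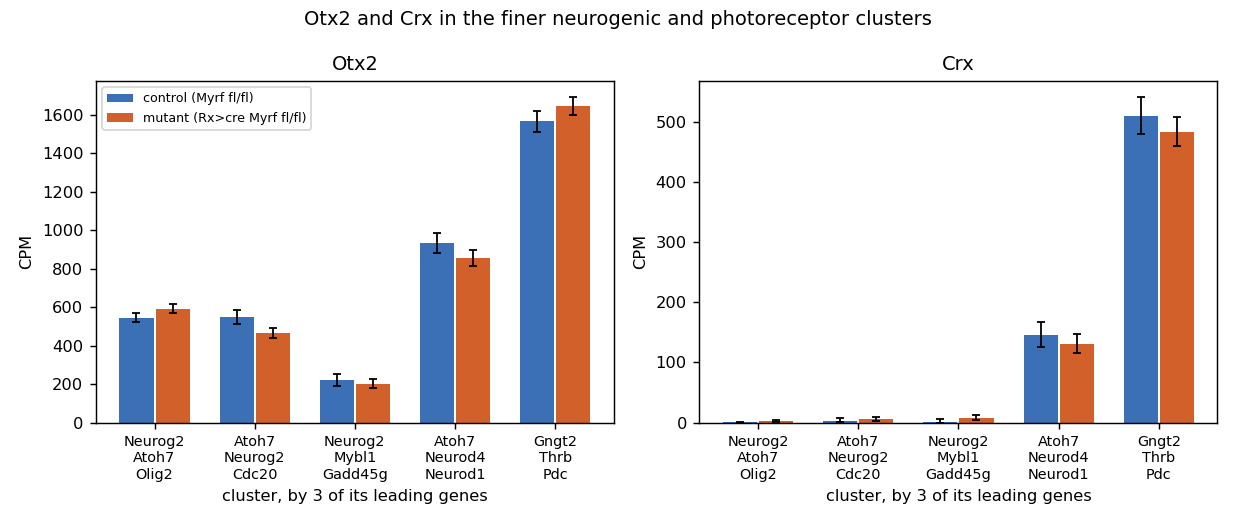
Otx2 (left) and Crx (right) in CPM in 5 finer clusters, each labelled with leading genes, with bars for the control (blue) and mutant (orange) library and 95% Poisson intervals. Otx2 runs from 203 to 593 CPM in the first 3 clusters, which hold Crx at 7.59 CPM or below, and both genes are highest in the cluster led by Gngt2, Thrb and Pdc.

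Per cell, 99.1% of photoreceptor precursor-like cells in the control and 99.8% in the mutant held Otx2, with a median of 11 UMIs in each library. Neurogenic progenitor-like cells were split, and 45.0% of them in the control and 39.1% in the mutant lacked Otx2, although 33.9% and 36.5% held at least 5 UMIs. After thinning every cell to 2000 UMIs, which left out shallower cells, Otx2 was seen in 37.1% of the 801 neurogenic cells left in the control (33.7 to 40.5) and in 42.9% of the 1114 left in the mutant (39.98 to 45.9). The thinned shares were 92.0% and 94.7% in photoreceptor precursor-like cells and 49.6% (43.2 to 56.0) and 43.9% (35.0 to 53.1) in RPE-like cells, where 244 control and 123 mutant cells were deep enough. Erythroid-like cells, which should lack Otx2, had thinned shares of 0.437% and 0.737% at class medians of 16721 and 16622 UMIs per cell.
Crx was found in 62.2% of thinned control photoreceptor precursor-like cells (56.5 to 67.6) and 59.8% of mutant ones (55.1 to 64.3), and in 95.3% and 91.9% before thinning. Among thinned neurogenic cells with an Otx2 UMI, Crx was also seen in 3.704% of 297 in the control (1.86 to 6.53) and in 4.81% of 478 in the mutant (3.07 to 7.13). Among those without Otx2 the shares were 1.59% (0.688 to 3.104) and 0.943% (0.347 to 2.04), so the intervals were apart in the mutant and overlapped in the control. In RPE-like cells, Otx1 was found in 8.26% of thinned control cells with Otx2 and in 13.0% of those without (7.62 to 20.3), and in 9.26% and 10.1% in the mutant. Those intervals overlapped, with 10 and 5 cells holding both genes after thinning. At full depth, Otx1 was seen in 34.5% of control RPE-like cells with Otx2 (28.7 to 40.6) and 12.1% of those without (6.63 to 19.9). The mutant shares were 40% (31.2 to 49.3) and 14.5% (7.45 to 24.4), so the intervals were apart at full depth in both libraries and overlapped at equal depth.

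**Figure D3:**
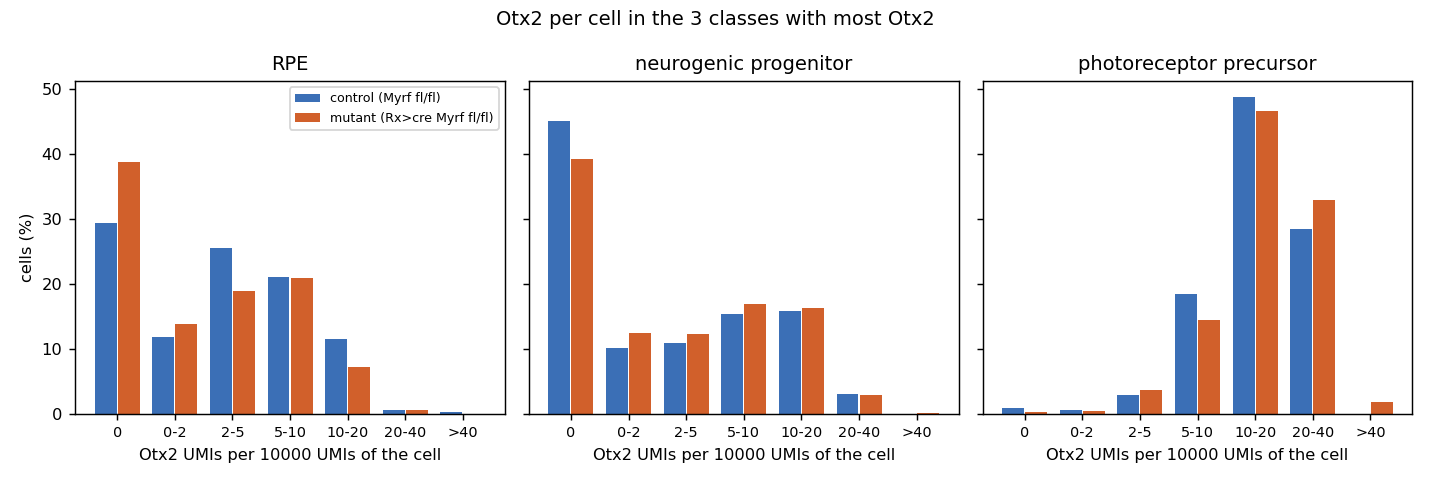
Share of cells by their Otx2 UMIs per 10000 UMIs, in RPE, neurogenic progenitor and photoreceptor precursor-like cells of the control (blue) and mutant (orange) library. In the control 45.0% of neurogenic cells lie in the bin of 0, against 0.949% of photoreceptor precursor-like cells, whose largest bin is 10 to 20.

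Neurogenic progenitor-like cells with an Otx2 UMI differed from the others in the same class in most of the listed genes. The split rests on Otx2 detection, and several of these genes named the class, so the values are a description with no test. There were 447 control cells with and 365 without, at median depths of 10636 and 10352 UMIs, and 687 and 442 mutant cells at 10365 and 9569. A cluster of this class had Pou4f2 and Dlx1 among its leading genes. At the finer resolution a cluster led by Gal, Pou4f2 and Dlx1 was named retinal ganglion cell-like. It held 170 control and 171 mutant cells, with Otx2 at 58.3 CPM over both libraries. How far such cells make up the group without Otx2 was not tested. Olig2, a bHLH factor of cycling neurogenic cells, was at 207 CPM with and 7.17 CPM without Otx2 in the control, and at 205 and 16.9 in the mutant. Dll4, a Notch ligand, was at 149 and 8.19 CPM in the control and at 132 and 8.92 in the mutant. Prdm1, which favours photoreceptor over bipolar fate, was at 97.5 and 4.61 CPM in the control and at 89.8 and 12.04 in the mutant.
Several other factors of neurogenesis were also higher with Otx2. Neurog2 was 9.61 times higher with Otx2 in the control (8.91 to 10.4) and 7.67 times in the mutant (7.19 to 8.19), and Neurod1, a photoreceptor and amacrine factor, 7.35 and 7.71 times. Onecut1, known from the horizontal and cone lineages, was 6.90 and 6.09 times higher. Crx itself was 7.37 times higher in the control (3.84 to 15.9) and 6.37 times in the mutant (3.68 to 11.9).
The Notch effectors Hes1 and Hes5 were lower with Otx2, at ratios of 0.418 and 0.284 in the control and 0.343 and 0.267 in the mutant. Rbpj, the DNA-binding partner of Notch, was higher at 2.12 (1.96 to 2.30) and 2.00 (1.87 to 2.15), and the receptor Notch1 was at 1.26 (1.15 to 1.38) and 1.05 (0.971 to 1.13). The proliferation marker Mki67 was higher with Otx2 at 1.68 (1.55 to 1.83) and 1.43 (1.33 to 1.54). Pou4f2, a ganglion cell factor, was lower, at 0.245 (0.213 to 0.281) and 0.221 (0.192 to 0.254). Atoh7, which marks the whole class, was nearly level, at 1.12 and 0.992, and Otx1 was at 0.768 (0.270 to 2.18) and 0.583 (0.239 to 1.42). Thrb, a cone factor, was not higher with Otx2, at 0.713 (0.516 to 0.984) in the control and 0.855 (0.612 to 1.20) in the mutant.

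**Figure D4:**
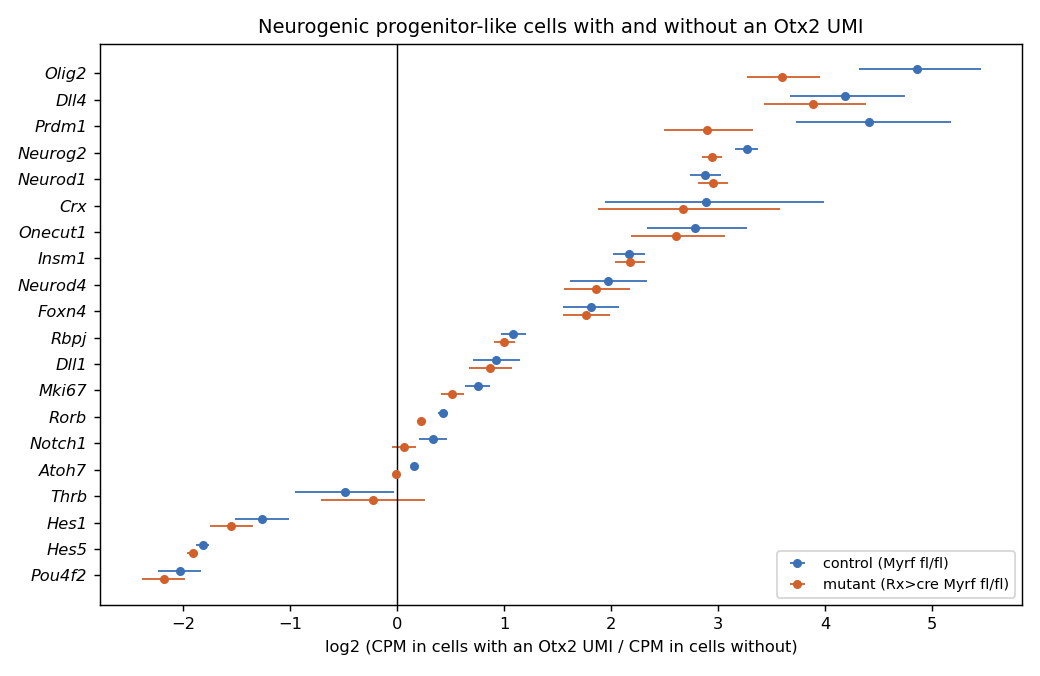
Log2 ratio of CPM between neurogenic progenitor-like cells with and without an Otx2 UMI for 20 genes, with 95% intervals, for the control (blue) and mutant (orange) library. Olig2, Dll4, Prdm1, Neurog2 and Neurod1 lie to the right at 7.35 times or more in the control, and Hes1, Hes5 and Pou4f2 lie to the left of 0 in both libraries.

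The comparison of mutant with control asked whether loss of Myrf from the eye field goes with a change in the 3 genes. None of the 7 ratios in the main classes reached 1.5-fold, a size reached in one or the other direction by 8.42% of tested genes in RPE-like cells, 10.7% in the Zic1/Pax2 cluster, 3.26% in neurogenic and 5.4% in photoreceptor precursor-like cells. In RPE-like cells the Otx2 levels of 426 and 378 CPM, from 1592 and 701 UMIs, gave a ratio of 0.887 (0.811 to 0.970). The mutant level lay below the control by its counting interval, by far less than Myrf did. In the gated cells the intervals overlapped, at 448 and 433 CPM and a log2 ratio of -0.05. Among Xist-positive cells lacking Y-linked UMIs, the log2 ratio was -0.46 from 1418 and 253 UMIs, against -0.17 over all cells. That subset held 71.7% of kept control and 24.1% of kept mutant cells. It selects on detection of Xist, and so on depth, as well as on sex. Without cells over 2000 UMIs, the limit for doublets in the study's methods, it was -0.64 from 54 and 22 UMIs, which is past 1.5-fold. Otx1 in RPE-like cells was at a ratio of 1.01 (0.778 to 1.30), with a log2 value of 0.88 once cells over 2000 UMIs were left out and 6 and 7 UMIs remained, and Otx2os1 at 0.858 (0.628 to 1.16).
Mutant RPE-like cells also held more RNA of retinal progenitor markers, with 8 of 8 found in each library and a summed level of 1410 CPM against 914 in the control. All 9 neurogenic markers were found in both libraries, at a summed 290 and 253 CPM in the mutant and control, while photoreceptor markers summed to 38.3 and 52.9 CPM with Rcvrn and Isl2 at 0 in both. Without the cells that held a UMI of neurogenic or photoreceptor genes such as Neurog2, Dll1, Dll4, Gngt2 and Gnb3, 335 control and 166 mutant cells remained and the Otx2 log2 ratio was -0.23. The part of neural RNA in the result was not tested.
In neurogenic progenitor-like cells Otx2 was at a ratio of 1.07 (1.03 to 1.12), from 4025 and 5860 UMIs, and Crx at 1.16 (0.906 to 1.497). In photoreceptor precursor-like cells Otx2 was at 1.05 (1.01 to 1.10) and Crx at 0.968 (0.898 to 1.04), from 1192 and 1644 UMIs. Otx1 in the Zic1/Pax2 cluster was at 1.24 (0.856 to 1.82), from 49 and 75 UMIs, or a log2 ratio of 0.31 that became 1.15 in thinned cells with 6 and 14 UMIs left and -0.39 in gated cells with 15 UMIs each. It was also past 1.5-fold at 0.80 with equal weight per cell and 0.69 without the 5 richest cells of each library. In Xist-positive cells lacking Y-linked UMIs it was 0.0014. The direction of the Otx2 ratio in neurogenic cells changed with how the class was drawn, since its log2 value was 0.10 here but -0.03 at the finer resolution and -0.05 when cells were gated by markers. That of Crx in neurogenic cells ran from -0.72 in Xist-positive cells lacking Y-linked UMIs to 2.21 without doublet removal, where the class held 6 control and 41 mutant UMIs.

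**Figure D5:**
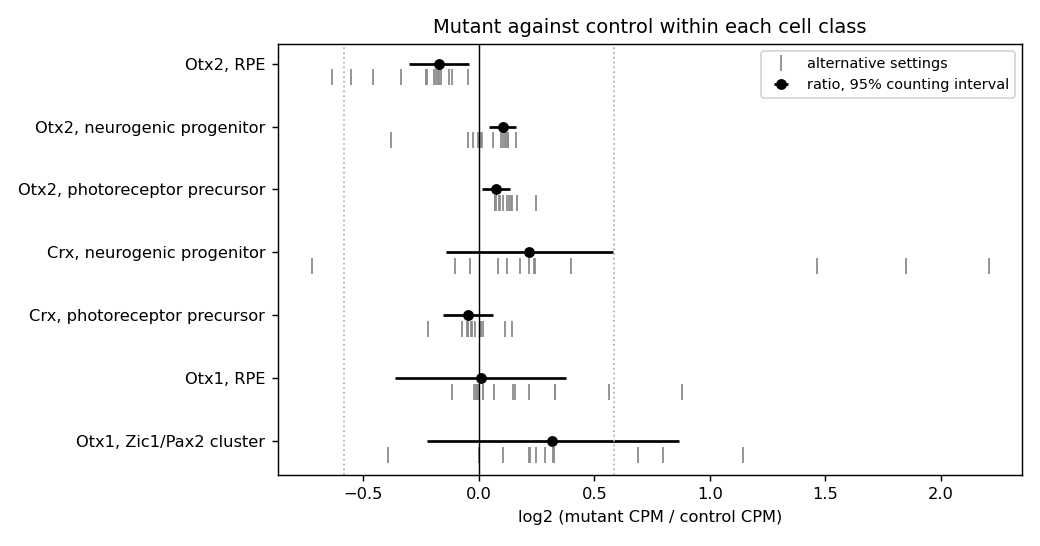
Log2 of the mutant to control ratio of CPM for the members in the classes that express them, as black points with 95% counting intervals, with grey ticks for the same ratio under each alternative setting and dotted lines at 1.5-fold. No black point passes a dotted line, and the widest spread of ticks is that of Crx in neurogenic progenitor-like cells, from -0.72 to 2.21.

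Genes that act with or below the 3 factors were taken from lists. A gene was tested with at least 50 UMIs over both libraries and counted as higher or lower from 1.5-fold. In RPE-like cells 3.02% of 8810 tested genes were higher and 5.4% lower by this measure. Of 11 tested pigment, visual cycle and transport genes, 0 were higher and 1 lower, with a median log2 ratio of -0.08 beside -0.06 over all tested genes. Rlbp1, the retinaldehyde-binding protein of the visual cycle, had levels of 344 and 228 CPM and a ratio of 0.663 (0.592 to 0.740). The enzymes Tyr and Dct of melanin synthesis were at 1.03 (0.963 to 1.10) and 1.01 (0.969 to 1.04), Tyrp1 at 0.948 (0.877 to 1.02), and Trpm1 at 0.855 (0.822 to 0.889).
Of 10 tested RPE and eye field factors, 3 were higher and 0 lower. Among the higher ones were Sox2 at 14.4 and 33.9 CPM and Six6 at 36.1 and 56.6 CPM, both progenitor genes of the neural retina. Mitf, the pigment cell factor that works beside OTX2, was at 228 and 168 CPM, a ratio of 0.736 (0.645 to 0.839). Of 7 tested genes on the Notch and neurogenic list 2 were higher and 0 lower in the same cells, among them Neurog2 at 5.88 and 25.9 CPM. The part of neural RNA in these differences was not tested.

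In photoreceptor precursor-like cells, where 2.36% of 8941 tested genes were higher and 3.04% lower, the fate factors stayed within 1.5-fold in 11 of 11 tested. Prdm1 was at a ratio of 1.00 (0.932 to 1.08), Neurod1 at 1.10 (1.06 to 1.14), Thrb at 0.858 (0.807 to 0.913), and Rxrg, a cone receptor, at 0.945 (0.812 to 1.10). Nrl, the rod factor, was at 33.8 and 49.1 CPM, a ratio of 1.45 (1.11 to 1.91). Of 20 photoreceptor target genes 7 were tested, with 1 higher and 0 lower and a median log2 ratio of 0.30, beside -0.05 over all tested genes.
The higher gene was Gngt2, the cone transducin gamma subunit, at 869 and 1562 CPM in control and mutant, with a ratio of 1.80 (1.71 to 1.89), next to Crx at 0.968. The other 6 tested had ratios between 1.17 and 1.32, among them Rbp3 at 1.17 (0.987 to 1.38), Gnb3 at 1.21 (1.10 to 1.33), and Tulp1 at 1.28 (1.09 to 1.502). Crxos, which is transcribed away from Crx on the opposite strand at chr7:15882617-15904020, had 21 and 46 UMIs in these cells and a ratio of 1.54 (0.899 to 2.71). Hes1 was at 19.1 and 38.5 CPM and retinal progenitor markers summed to 1070 CPM in the control and 1508 in the mutant, 8 of 8 being higher in the mutant. The part of progenitor RNA in these values was not tested.
In neurogenic progenitor-like cells, where 1.73% of 10904 tested genes were higher and 1.52% lower, all 12 Notch and neurogenic genes were tested and none reached 1.5-fold, with Foxn4 at 1.22 (1.12 to 1.33) and Atoh7 at 0.901 (0.892 to 0.909). Of 8 tested fate factors none reached it either, and Isl1, listed here for bipolar fate and also used by ganglion cells, was the 1 lower of 2 tested bipolar genes at 208 and 126 CPM. In the Zic1/Pax2 cluster, where 6.72% of 4020 tested genes were higher and 3.96% lower, 3 of 8 tested RPE and eye field factors were higher and 0 lower. All 9 neurogenic markers were higher there in the mutant, at a summed 487 CPM against 204, and their part in the result was not tested.

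Likeness of pattern was measured as Pearson's r of log2(CPM + 1) over the 30 clusters with at least 50 control cells, for genes reaching 10 CPM in one of them. The clusters share 1 library and differ in depth, and r is a description. For Otx2 the 5 closest of 13146 genes were Neurod1 at 0.851, Btg2 at 0.837, Neurod4 at 0.835, Prdm1 at 0.834 and Atoh7 at 0.829, with 0.862, 0.794, 0.662, 0.787 and 0.771 in the mutant. All 5 also served as naming markers. For Crx they were Ppef2, a photoreceptor phosphatase, at 0.935, the LIM homeodomain gene Lhx4 at 0.909, Gnb3 at 0.908, Rbp3 at 0.906 and Lrit2 at 0.886, with 0.875, 0.907, 0.874, 0.838 and 0.847 in the mutant.
For Otx1 they were Klhl14 at 0.917, 4930426D05Rik at 0.906, the endocytic receptor gene Lrp2 at 0.899, Aldh1a7 at 0.878 and the nonmuscle myosin gene Myh14 at 0.829, with 0.836, 0.830, 0.832, 0.803 and 0.922 in the mutant. Between the members, Otx2 and Crx had r of 0.681 in the control and 0.657 in the mutant, Otx1 and Otx2 0.255 and 0.253, and Otx1 and Crx 0.0033 and -0.024. Otx2 and Otx2os1 had r of 0.638 and 0.647.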

How the data were processed

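Single cells of 1 control and 1 mutant library were analysed. The values deposited by the authors are whole-number UMI counts for each gene in each cell, with no normalization. Reads had been aligned to GRCm38 (mm10), and the submitters' processing notes name Cell Ranger 7.1.0 and Seurat 4.1.1, whereas version 3.1.0 stands in the matrix headers. Groups were taken from the genotype labels.

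Barcodes with at least 200 genes and at most 15% mitochondrial UMIs were kept. Scrublet (scanpy 1.11.5) was run on each library with an expected doublet rate of 9.55% and 10.4%, from its barcode number, and 424 control (3.55%) and 442 mutant barcodes (3.40%) were removed. Cells were clustered together on 1884 variable genes, 30 principal components and a Leiden resolution of 1.0 (leidenalg 0.10.2), leaving out the members, the listed genes, the naming markers, and haemoglobin, mitochondrial and sex-linked genes. A cluster took the class with the highest mean marker score (at least 1.0, by a margin of 0.3) unless another class had more markers among its 10 leading genes or it was shallow with no such marker. Of kept cells 16.2% (control) and 16.5% (mutant) stayed unnamed.

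UMIs were summed per class and library. Intervals were computed with scipy 1.17.1 at 95%, and a count of 0 was set to 3 UMIs in ratios. Interval coverage was checked on simulated counts. These were independent Poisson draws, the intervals' own assumption, so the check cannot speak to UMIs clumped in a few cells. The named genes were the members, Otx2os1, up to 4 listed genes with the largest ratios per direction and class with at least 50 UMIs, and the 5 genes most like each member. Further listed genes are named for their known roles and were chosen after their values were seen, as were Myrf, Mki67 and Pou4f2. The members, lists and markers were chosen with earlier results of these data known. Gene positions are from GENCODE vM21. No protein sequence and no Otx1 window was used here. Some listed genes are not reported here.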

Additional observations from a re-analysis of the deposited data

Results flagged for a closer look

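Otx2 pointed one way in RPE-like cells and the other in neurogenic and photoreceptor precursor-like cells, by counting intervals that lay on either side of 1. Those intervals take UMIs as independent and leave out the spread between cells. The ratio of mutant to control was 0.887 in RPE-like cells, 1.07 in neurogenic progenitor-like cells and 1.05 in photoreceptor precursor-like cells. With 1 library per genotype the difference between these ratios was not tested, and the neurogenic one changed sign with how the class was drawn. Amacrine or horizontal-like cells, also of the neural retina, were at 0.766 (0.607 to 0.967).

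Outside the classes compared, Otx2 stood higher in the mutant library than in the control in several classes. Erythroid-like cells, which should lack it, were among them, at 4.11 CPM (2.73 to 5.94) in mutant and 1.05 CPM (0.451 to 2.06) in control, from 28 and 8 UMIs, with all 9 neurogenic markers higher in the mutant at a summed 189 CPM against 71.0. The median log2 ratio over all tested genes was itself 0.44 in erythroid-like cells. Otx2 was at 8.59 CPM in mutant and 3.73 CPM in control periocular mesenchyme-like cells, and at 28.0 and 3.96 CPM in muscle-like cells, where 5 cells held 97.6% of the mutant UMIs. Retinal progenitor-like cells held 10.2 and 8.25 CPM, and unnamed clusters 37.7 and 28.6 CPM. Crx was at 1.33 CPM in mutant and 0.656 CPM in control mesenchyme-like cells. In mutant mesenchyme-like cells all 9 neurogenic markers were higher, at a summed 304 CPM against 169, and photoreceptor markers summed to 21.0 against 12.6 CPM. In muscle-like cells 7 of 9 neurogenic markers were higher, at a summed 507 CPM against 376. Of 8 retinal progenitor markers there 1 was higher, at a summed 523 CPM against 635. No such sums are given here for retinal progenitor-like and unnamed cells. The part of neural RNA in these levels was not tested. The mesenchymal Otx2 level is small beside that of RPE-like cells, at 378 CPM in the mutant.

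Otx1 was at 136 CPM in mutant and 98.2 CPM in control surface epithelium-like cells, a ratio of 1.38 (1.12 to 1.71) in 109 and 83 cells. Markers of the class itself moved with it, with Krt5 at 1649 and 1116 CPM and Krt14 at 1067 and 650 in mutant and control, but Krt8 at 263 and 483, Krt18 at 195 and 374, and Epcam at 435 and 674. Neurogenic markers summed to 537 CPM there in the mutant and 213 in the control. The part of either marker set in the result was not tested.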

How the results depend on the processing

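The 7 ratios of the members were recomputed under 12 to 15 settings each. On the log2 scale, Otx2 in RPE-like cells was -0.17 and became -0.55 without cells over 20000 UMIs, -0.64 without cells over 2000 UMIs, -0.46 in Xist-positive cells lacking Y-linked UMIs, and -0.34 with equal weight per cell, and was nearest to 0, at -0.047, when gated by markers. Otx1 there went from 0.011 to 0.88 without cells over 2000 UMIs (13 UMIs in all) and 0.57 with equal weight. Otx1 in the Zic1/Pax2 cluster went from 0.31 to 1.15 when thinned and to -0.39 when gated by markers (15 UMIs in each library, in 6 and 10 cells). It was 0.80 with equal weight per cell, 0.69 without the 5 richest cells and 0.0014 in Xist-positive cells lacking Y-linked UMIs. Otx2 in neurogenic cells went from 0.10 to -0.0036 at a mitochondrial limit of 5%, -0.38 without cells over 2000 UMIs, 0.011 without doublet removal, 0.0075 with doublets removed at the expected rate, -0.027 at resolution 2.0 and -0.047 when gated by markers. Otx2 in photoreceptor precursor-like cells went from 0.075 to 0.25 at the 5% limit, 0.14 with doublets at the expected rate, 0.14 when gated and 0.17 when thinned. Crx there went from -0.047 to 0.11 at the 5% limit, 0.14 in Xist-positive cells lacking Y-linked UMIs and -0.22 when thinned. Crx in neurogenic cells went from 0.22 to 2.21 without doublet removal, 1.46 with doublets at the expected rate, 1.85 at resolution 2.0 and -0.72 in Xist-positive cells lacking Y-linked UMIs. Gating by markers moved control photoreceptor precursor-like levels from 1507 to 1658 CPM for Otx2 and from 485 to 535 CPM for Crx. The cause of these moves was not tested. Leaving out the 5 richest cells, shared barcodes or cells with neural UMIs, and the Msx1 or Wfdc1 cells alone, were added after seeing the data. With a minimum of 20 UMIs, run for the pigment and eye field lists in RPE-like cells, the Notch list in neurogenic cells and the fate and target lists in photoreceptor precursor-like cells, the numbers higher and lower were the same, while tested target genes went from 7 to 10. No value was obtained for the Zic1/Pax2 cluster at the 5% limit or with either UMI limit, nor without cells over 2000 UMIs for photoreceptor precursor-like cells and for Crx in neurogenic cells. No paired analysis was possible because each genotype is 1 library. Low UMI counts limit Crx in neurogenic cells and Otx1 in the Zic1/Pax2 cluster, and the thinned depth limits all shares after thinning.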
